A study of Homo sapiens with 21 samples.

Results

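The transcripts described here encode 10 proteins of the extracellular matrix and its partners: FBN1, FBN2, HMCN1, NPNT, FN1, TGM2, TNC, THBS1, SPARC and SUSD5. They were taken from the 60668 genes of both count tables by matching the Ensembl identifier, without its version, to the gene symbol. Several of the 10 were picked because they were among the largest differences between an overexpressing line and its control, so the differences of all 10 are given as values with no p. Whether a value lay past the test's threshold is stated as a description only. Counts came from HCC1806, a long-established human line derived from a triple-negative breast tumour and kept here as an adherent layer in DMEM with serum. The first table held 9 libraries: 3 of control cells (3XCTL), 3 labelled as overexpressing the trio SRSF2, SRSF3 and SRSF7 (3XSR) and 3 labelled as overexpressing MYC (MYC-OE). The second held 12 libraries: 3 with a single control plasmid (1xCtrl) and 3 each labelled as overexpressing SRSF2 (1xSRSF2), SRSF3 (1xSRSF3) or SRSF7 (1xSRSF7). SRSF2, SRSF3 and SRSF7 are SR proteins, RNA-binding regulators of splicing, whereas MYC acts on transcription. The labels do not say whether replicates were separate cultures, or whether a line is a clone, so each test below measures only the spread between these libraries.

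Fibrillins are long secreted glycoproteins that join end to end into microfibrils, the scaffold on which elastic fibres form and to which latent TGF-beta complexes are tethered. Hemicentins are extracellular proteins of basement membranes, fibronectin and nephronectin are matrix ligands of integrins, and transglutaminase cross-links matrix proteins. Tenascin-C, thrombospondin and SPARC are matricellular proteins, which sit in the matrix and modulate adhesion and growth factor signals rather than bear load. In breast tissue much of the matrix is made by stromal fibroblasts, and carcinoma cells also make part of it.

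Libraries held between 143269192 and 303323552 counts. Levels are CPM, counts per mega-count of a library's total after scaling by the trimmed mean of M values (TMM) within its table. A value is said to have passed the test where the quasi-likelihood test of edgeR gave a Benjamini-Hochberg adjusted p under 0.05. SRSF3, SRSF7 and MYC transcripts were raised in the lines labelled for them, but SRSF2 was not: it was at 398 CPM in the libraries labelled 1xSRSF2 and 444 in 1xCtrl, and at 386 in those labelled 3XSR and 403 in 3XCTL. The rises were not particular to the labelled line: SRSF7 was at 428 CPM in 1xSRSF2 and 435 in 1xSRSF7, against 363 in 1xCtrl, and SRSF3 was 1.23-fold its control in 1xSRSF2 and 1.40-fold in 1xSRSF3. MYC was at 157 CPM in 3XSR and 174 in MYC-OE, against 93.4 in 3XCTL. Markers of epithelial cells (7 genes) summed to between 4910 and 5950 CPM in all 21 libraries. ESR1 was between 6.49 and 11.5 CPM, and ERBB2 between 99.6 and 184. PGR was between 1.14 and 1.46 CPM in 1xCtrl and between 0.103 and 0.315 in 3XCTL. It was at 0 in every library of 3XSR, MYC-OE and 1xSRSF2, and no library of 1xSRSF3 or 1xSRSF7 held more than 6 counts. Of 8 fibroblast markers, COL1A2, COL3A1, PDGFRA, PDGFRB and DCN were under 1 CPM in every library, whereas COL1A1, LUM and THY1 were above it. In 1xCtrl, replicate 2 departed from the others for several genes. Among them were COL1A1 (15.7 CPM against 7.25 and 5.46), KRT14 (677 against 465 and 388) and KRT17 (96.5 against 54.7 and 45.2). Results that change without this 1xCtrl replicate are named below. In 3XCTL, replicate 2 was below the others for COL1A1 (6.40 CPM against 10.8 and 10.3), KRT14 (281 against 404 and 359) and KRT17 (81.2 against 128 and 108). In bulk RNA, fewer cells that make a transcript and less of it per cell cannot be told apart.

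The fibrillin genes differed in the way they moved. FBN2 (ENSG00000138829.12) was higher than control in 4 lines, most in MYC-OE, and lower in 1xSRSF3. FBN1 (ENSG00000166147.13) was higher in 1xSRSF3, MYC-OE and 3XSR, and lower in 1xSRSF7. FBN2 lies on chromosome 5 from 128257909 to 128659185, and FBN1 on chromosome 15 from 48408306 to 48645849, both on the minus strand (GENCODE 29, GRCh38). Their promoters are shown because the genes are close relatives and moved differently between the lines. Each line gives the bases before the RefSeq start (GRCh38.p14), 5′ to 3′, with a canonical E-box (CACGTG, the sequence that MYC with MAX binds) in capitals where it occurs. Neither stretch overlaps an exon of its gene in GENCODE 29, although both lie inside the annotated gene.
FBN2, chr5:128538246-128538495, minus strand: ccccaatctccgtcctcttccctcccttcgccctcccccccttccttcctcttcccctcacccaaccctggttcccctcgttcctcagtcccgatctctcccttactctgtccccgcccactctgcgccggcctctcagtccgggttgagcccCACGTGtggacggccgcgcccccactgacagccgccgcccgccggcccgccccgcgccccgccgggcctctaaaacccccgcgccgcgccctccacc
FBN1, chr15:48644971-48645220, minus strand: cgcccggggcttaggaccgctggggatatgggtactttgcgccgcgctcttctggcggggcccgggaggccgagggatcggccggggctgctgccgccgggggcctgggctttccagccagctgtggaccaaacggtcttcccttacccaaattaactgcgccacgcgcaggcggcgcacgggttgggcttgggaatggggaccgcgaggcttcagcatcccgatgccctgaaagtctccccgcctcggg

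The E-box of FBN2 starts 97 bases before its RefSeq start. Windows of 300 bases, from 250 before to 50 after the start, were matched for 8 of the 10 genes, all but HMCN1 and TGM2, and FBN2 was the only 1 of the 8 to hold CACGTG, whose letters read the same on both strands. Of 34796 such windows of RefSeq, 7.2% held it. A match is a description of the letters in this window and not evidence of binding.

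FBN2 stood at 3.18, 3.03 and 3.17 CPM in the 3XCTL libraries, at 12.2, 12.4 and 12.4 in 3XSR and at 55.0, 56.3 and 54.5 in MYC-OE. These 3 groups were apart, and the MYC-OE libraries lay within 2 CPM of each other. The log2 fold change against 3XCTL was 1.98 (SE 0.0541) in 3XSR and 4.14 (SE 0.0579) in MYC-OE, or 3.95-fold and 17.7-fold. In the second table FBN2 was at 12.1, 9.30 and 11.6 CPM in 1xCtrl, 17.5, 17.4 and 19.2 in 1xSRSF2, 24.3, 24.7 and 20.6 in 1xSRSF7, and 5.12, 4.25 and 4.11 in 1xSRSF3. All 4 groups were apart, with 1xSRSF3 below and the other lines above their control. The log2 fold changes were 0.71 (SE 0.116) in 1xSRSF2, 1.07 (SE 0.116) in 1xSRSF7 and -1.29 (SE 0.118) in 1xSRSF3.

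FBN1 varied over a narrower range. It stood at 4.38, 6.41 and 5.66 CPM in 3XCTL, 8.25, 8.18 and 7.31 in 3XSR and 10.7, 9.16 and 11.4 in MYC-OE. The log2 fold change was 0.53 (SE 0.132) in 3XSR and 0.93 (SE 0.132) in MYC-OE, and the groups did not overlap. In the second table FBN1 was at 7.61, 7.59 and 8.01 CPM in 1xCtrl, 8.09, 9.22 and 8.48 in 1xSRSF2, 15.5, 13.4 and 14.7 in 1xSRSF3 and 5.84, 6.35 and 5.39 in 1xSRSF7. The highest and lowest groups for FBN1 were thus 1xSRSF3 and 1xSRSF7, the reverse of the order for FBN2. The log2 fold change was 0.91 (SE 0.0903) in 1xSRSF3 and -0.40 (SE 0.0900) in 1xSRSF7, and the 0.15 (SE 0.0898) of 1xSRSF2 did not pass the test.

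Per exon base, the ratio of FBN2 to FBN1 showed which fibrillin transcript was the more abundant. FBN1 exceeded FBN2 in 3XCTL, where the ratio was 0.714 ± 0.157 (SD, n = 3), and in 1xSRSF3, where it was 0.376 ± 0.0317. FBN2 exceeded FBN1 in every library of the other 5 groups, with ratios of 1.73 ± 0.227 in 1xCtrl, 1.91 ± 0.139 in 3XSR, 2.56 ± 0.234 in 1xSRSF2, 4.81 ± 0.224 in 1xSRSF7 and 6.52 ± 0.856 in MYC-OE. The ratio is formed within a library and so does not depend on how libraries were scaled. It does depend on the exon lengths used, 13196 bases for FBN2 and 16057 for FBN1.

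**Figure D1:**
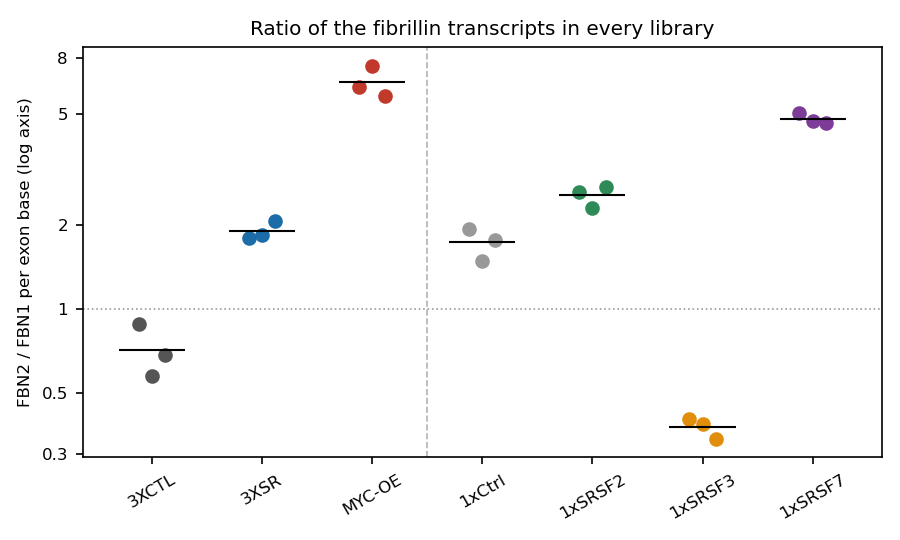
Ratio of FBN2 to FBN1 transcript per exon base in each of the 21 libraries, on a log axis, by group; points are libraries, bars are group means, the dotted line marks equal levels and the dashed line divides the 2 count tables. The 3XCTL and 1xSRSF3 libraries lie below 1, from 0.341 to 0.884, and all others lie above it, up to 7.48 in MYC-OE.

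HMCN1 (ENSG00000143341.12; chromosome 1, 185734551 to 186190949, plus strand), which encodes hemicentin-1, was lower than control in all 5 lines. It stood at 31.9, 33.7 and 34.0 CPM in 3XCTL, 10.5, 9.38 and 10.1 in 3XSR and 5.42, 5.59 and 4.16 in MYC-OE. Beside 27.4, 21 and 26.4 CPM in 1xCtrl, it was at 5.28, 5.57 and 5.02 in 1xSRSF2, 4.32, 3.85 and 4.62 in 1xSRSF3 and 7.54, 8.78 and 7.69 in 1xSRSF7. No overexpressing library of either table reached the lowest control library. The log2 fold changes were -1.73 (SE 0.101) in 3XSR, -2.71 (SE 0.105) in MYC-OE, -2.24 (SE 0.115) in 1xSRSF2, -2.55 (SE 0.117) in 1xSRSF3 and -1.64 (SE 0.112) in 1xSRSF7, that is from 3.11-fold lower in 1xSRSF7 to 6.56-fold lower in MYC-OE.

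The summed fibroblast markers moved in part with HMCN1, mainly through LUM. They summed to between 53.7 and 56.4 CPM in 3XCTL, 31.1 and 34.3 in 3XSR and 38.6 and 40.0 in MYC-OE. Among the single-factor libraries the sums were 35.4 to 42.4 in 1xCtrl, 26.9 to 27.5 in 1xSRSF2, 27.4 to 28.8 in 1xSRSF3 and 36.5 to 41.5 in 1xSRSF7, so only the last overlapped its control. LUM, which encodes the small proteoglycan lumican, was at 37.6 CPM in 3XCTL and 8.96 in MYC-OE. THY1 went the other way, at 6.32 CPM in 3XCTL and 20.02 CPM in MYC-OE. With 5 of 8 markers under 1 CPM everywhere, the part of these markers in the HMCN1 values was not tested. The 5 immune markers summed to more in every line than in its control: 7.61 to 13.1 CPM in 3XCTL, 17.7 to 21.5 in 3XSR and 34.6 to 38.5 in MYC-OE, and 10.6 to 18.4 in 1xCtrl, 21.6 to 23.7 in 1xSRSF2, 29.9 to 33.0 in 1xSRSF3 and 22.4 to 26.6 in 1xSRSF7. Nearly all of that was CD68, at 34.6 CPM in MYC-OE and 8.51 in 3XCTL, while PTPRC, CD3E and CD79A were under 1 CPM in every library. CD14 was at 1.66 CPM in 3XCTL, 1.02 in 3XSR and 2.08 in MYC-OE. It was at 1.73 CPM in 1xCtrl, 0.730 in 1xSRSF2, 0.780 in 1xSRSF3 and 1.81 in 1xSRSF7, so it did not rise with CD68 in every line. The part of these immune markers in the values of the 10 genes was not tested.

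FN1 (ENSG00000115414.19; chromosome 2, 215360440 to 215436172, minus strand) and NPNT (ENSG00000168743.12; chromosome 4, 105894775 to 106004027, plus strand) encode fibronectin and nephronectin. Both were highest in MYC-OE in the first table and in 1xSRSF7 in the second, and within the second both were lowest in 1xSRSF3. The bases before the RefSeq start of FN1 that lie outside its GENCODE 29 exons are shown because they carry a cyclic AMP response element, TGACGTCA, in capitals.
FN1, chr2:215436173-215436318, minus strand: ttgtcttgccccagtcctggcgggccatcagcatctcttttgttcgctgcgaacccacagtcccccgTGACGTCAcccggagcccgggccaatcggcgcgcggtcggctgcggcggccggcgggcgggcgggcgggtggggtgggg

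The element starts 183 bases before the start, and its letters read the same on both strands. No other of the 8 windows held it, and 1.84% of all windows did. An AP-1 site (TGANTCA, either strand) was in none of the 8 and in 7.73% of all windows.

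FN1 was at 27.6, 31.6 and 31.0 CPM in 3XCTL and at 31.8, 29.6 and 29.9 in 3XSR, which overlap, with a log2 fold change of 0.02 (SE 0.0704) that did not pass the test. In MYC-OE it was at 103, 91.8 and 107 CPM, far above both. The MYC-OE log2 fold change was 1.74 (SE 0.0718). In the second table FN1 was at 40.0, 39.4 and 38.1 CPM in 1xCtrl, 51.2, 54.2 and 45.3 in 1xSRSF2, 36.5, 30.6 and 31.1 in 1xSRSF3 and 90.6, 92.9 and 81.8 in 1xSRSF7. The groups were apart, with 1xSRSF7 at more than the level of any other library of that table. The log2 fold changes were 1.17 (SE 0.0847) in 1xSRSF7, 0.36 (SE 0.0838) in 1xSRSF2 and -0.26 (SE 0.0838) in 1xSRSF3. The FN1 value of 1xSRSF2 no longer passed without its replicate 1 (0.30) or replicate 2 (0.26), and that of 1xSRSF3 without its replicate 2 (-0.25) or 3 (-0.28), while without replicate 1 it was -0.40.

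NPNT was at 4.04, 3.54 and 3.73 CPM in 3XCTL, 4.83, 5.24 and 4.96 in 3XSR and 12.7, 13.1 and 11.3 in MYC-OE. Its level was 5.02, 4.25 and 4.72 CPM in 1xCtrl, 12.3, 13.2 and 13.9 in 1xSRSF2, 2.66, 2.86 and 3.26 in 1xSRSF3 and 15.5, 14.8 and 14.5 in 1xSRSF7. Every group was apart from its neighbours, and 1xSRSF3 was the only line below its control. The log2 fold changes were 0.41 (SE 0.0891) in 3XSR, 1.71 (SE 0.0905) in MYC-OE, 1.49 (SE 0.0971) in 1xSRSF2, -0.67 (SE 0.0966) in 1xSRSF3 and 1.68 (SE 0.0975) in 1xSRSF7. NPNT shares 415 of its 6117 exon bases with genes on the other strand, and whether strand was used in counting is not given in the sources used here, so part of its counts could belong to those genes.

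TGM2 (ENSG00000198959.12; chromosome 20, 38127387 to 38166578, minus strand) encodes tissue transglutaminase, which cross-links fibronectin and other matrix proteins. It stood at 14.0, 11.2 and 11.9 CPM in 3XCTL, 2.75, 3.23 and 3.22 in 3XSR and 7.84, 6.46 and 8.01 in MYC-OE. These groups were apart, and 3XSR was the lowest, 4.03-fold below 3XCTL. The log2 fold change was -2.01 (SE 0.119) in 3XSR and -0.73 (SE 0.114) in MYC-OE. In the second table TGM2 was at 5.40, 7.74 and 5.14 CPM in 1xCtrl, 7.69, 6.71 and 6.65 in 1xSRSF2, 3.39, 3.47 and 3.24 in 1xSRSF3 and 7.48, 7.89 and 7.37 in 1xSRSF7. The second 1xCtrl library overlapped 1xSRSF2 and 1xSRSF7, whereas 1xSRSF3 lay below all control libraries, with a log2 fold change of -0.86 (SE 0.137). The values of 1xSRSF2 (0.20, SE 0.136) and 1xSRSF7 (0.31, SE 0.135) did not pass and moved with the control libraries. Without 1xCtrl replicate 2 they were 0.41 and 0.54 and did pass, without replicate 1 they were 0.05 and 0.18, and without replicate 3 they were 0.05 and 0.17. Without 1xSRSF2 replicate 1 the 1xSRSF2 value was 0.08. TGM2 shares 394 of 8036 exon bases with RPRD1B on the other strand.

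Among the matricellular genes, THBS1 (ENSG00000137801.11; chromosome 15, 39581079 to 39599466, plus strand) was the most abundant of the 10 per exon base and was lower than control in all 5 lines. Thrombospondin-1 can release TGF-beta from its latent complex. THBS1 was at 1225, 1351 and 1291 CPM in 3XCTL, 609, 664 and 599 in 3XSR and 924, 908 and 913 in MYC-OE. The single-plasmid control had 852, 842 and 820 CPM, against 561, 581 and 608 in 1xSRSF2, 762, 656 and 668 in 1xSRSF3 and 587, 595 and 542 in 1xSRSF7. Every control library exceeded every overexpressing library of its table. The log2 fold change was largest in 3XSR, -1.05 (SE 0.0551), and lay between -0.27 (SE 0.0680, 1xSRSF3) and -0.54 (SE 0.0681, 1xSRSF7) in the other 4 lines. It shares 694 of 9158 exon bases with genes on the other strand.

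TNC (ENSG00000041982.16; chromosome 9, 115019578 to 115118257, minus strand), which encodes tenascin-C, was lowest in 1xSRSF2. It was at 3.89, 3.71 and 3.78 CPM in 3XCTL, 2.63, 2.76 and 2.56 in 3XSR and 4.32, 4.10 and 4.25 in MYC-OE. TNC was at 6.05, 6.75 and 5.53 CPM in 1xCtrl, 1.30, 1.60 and 1.48 in 1xSRSF2, 5.67, 5.57 and 5.03 in 1xSRSF3 and 2.26, 2.87 and 2.26 in 1xSRSF7. Only 1xSRSF3 overlapped its control. The log2 fold changes were -2.07 (SE 0.134) in 1xSRSF2, -1.31 (SE 0.130) in 1xSRSF7 and -0.52 (SE 0.0901) in 3XSR, while 0.15 (SE 0.0892) in MYC-OE and -0.17 (SE 0.127) in 1xSRSF3 did not pass.

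SPARC (ENSG00000113140.11; chromosome 5, 151661096 to 151687165, minus strand), a collagen-binding protein typical of stroma, was barely transcribed in these cells. No library held more than 37 counts of it and 1 library, of 1xSRSF3, held 0, where 3 counts correspond to 0.0152 CPM. Its group means ran from 0.0320 ± 0.0324 CPM (SD, n = 3) in 1xSRSF3 to 0.132 ± 0.0584 in MYC-OE. None of its 5 values against control passed the test, and their standard errors, from 0.562 to 0.754, were the widest of the 10 genes. The value of 1xSRSF3 (-1.87) did pass with DESeq2 (-1.90), with limma-voom (-2.64) and without 1xSRSF3 replicate 2 (-2.85), and that of MYC-OE (1.36) passed without MYC-OE replicate 1 (1.69). In the first table SPARC entered the genes tested through MYC-OE, its highest group: all 3 libraries there reached the filter's cutoff of 0.0505 CPM, against 1 of 3XCTL and 0 of 3XSR. SPARC shares 381 of its 4831 exon bases with CLMAT3 on the other strand, so part of its few counts could belong to that gene.

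SUSD5 (ENSG00000173705.9; chromosome 3, 33150042 to 33219215, minus strand), named for its sushi domain and also carrying a hyaluronan-binding Link domain, was higher than control in all 5 lines. It was at 0.191, 0.324 and 0.206 CPM in 3XCTL, 2.51, 2.67 and 2.00 in 3XSR and 9.56, 10.7 and 10.2 in MYC-OE. The level was 1.44, 1.01 and 1.38 CPM in 1xCtrl, 7.76, 8.22 and 9.18 in 1xSRSF2, 3.12, 3.02 and 2.73 in 1xSRSF3 and 4.89, 4.65 and 4.70 in 1xSRSF7. All groups were apart. The log2 fold change was 3.33 (SE 0.188) in 3XSR, 5.41 (SE 0.199) in MYC-OE, 2.71 (SE 0.137) in 1xSRSF2, 1.21 (SE 0.132) in 1xSRSF3 and 1.89 (SE 0.134) in 1xSRSF7. The 42.5-fold value of MYC-OE rests on between 37 and 60 counts in the 3XCTL libraries.

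**Figure D2:**
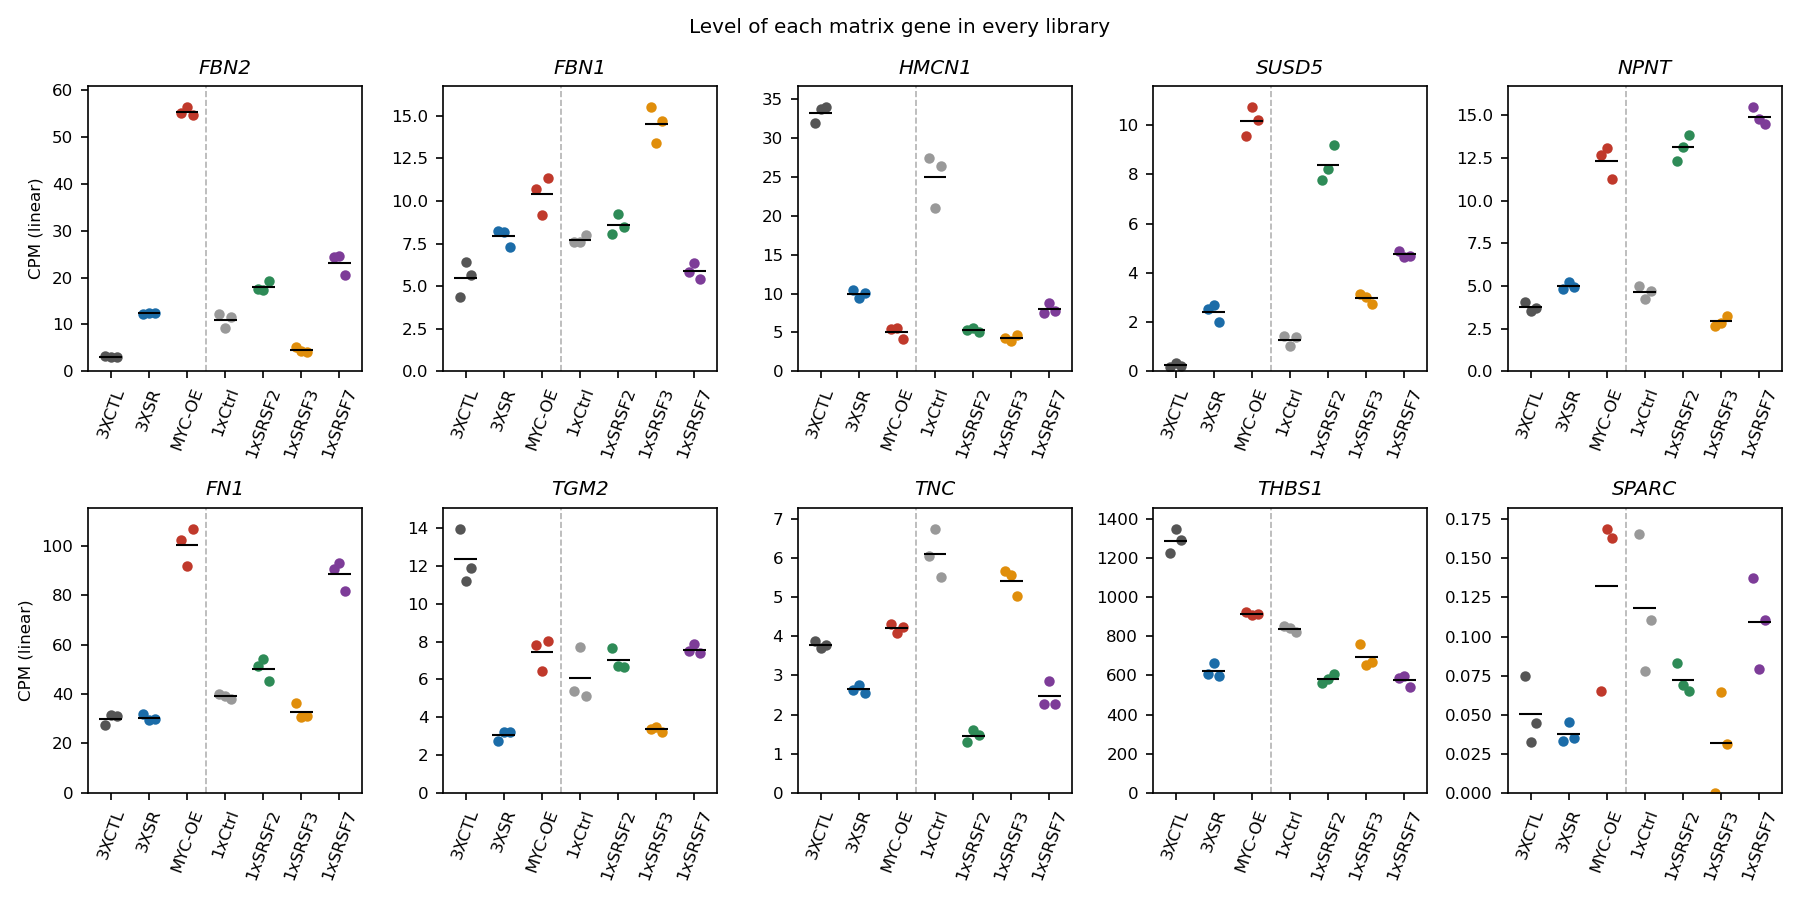
Level of each of the 10 genes in every library, in CPM on a linear axis that starts at 0 and differs between panels; points are libraries, horizontal bars are group means and the dashed line divides the 2 count tables, which were scaled separately. HMCN1 and THBS1 are highest in the control libraries of each table, SUSD5 is lowest there, and FBN2, FN1 and NPNT reach their highest levels in MYC-OE and 1xSRSF7.

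The controls of the tables were not interchangeable for these genes. With all 21 libraries scaled together, the 3 libraries of 1xCtrl and the 3 of 3XCTL did not overlap for any of the 10. The share of all genes whose control libraries did not overlap is not given here. The separation is therefore not read as particular to the 10. 1xCtrl was above 3XCTL by 2.39 on the log2 scale for SUSD5, 1.81 for FBN2, 1.09 for SPARC, 0.69 for TNC and 0.52 for FBN1, and below it by -1.03 for TGM2 and -0.62 for THBS1. Plasmids and count table differ between these controls and cannot be told apart here. A line's fold change is therefore given only against the control of its own table.

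Against control, 8 of the 10 genes passed the test (edgeR, adjusted p under 0.05) in 3XSR, 4 of them higher and 4 lower, where 29.0% of 23160 genes tested did (15.3% higher, 13.7% lower). In MYC-OE 8 passed, 5 higher and 3 lower, against 35.3% of all genes (18.0% higher, 17.3% lower). In 1xSRSF2 7 passed, 4 higher and 3 lower, against 23.5% of 24362 genes (11.6% higher, 11.9% lower). In 1xSRSF3 8 passed, 2 higher and 6 lower, against 29.2% (15.0% higher, 14.1% lower), and in 1xSRSF7 8, 4 higher and 4 lower, against 17.3% (9.03% higher, 8.26% lower). The genes were chosen on these contrasts, so nothing is read from the excess over the background. All 10 passed the filter on low counts in both tables, SPARC in the first only through MYC-OE. HMCN1 and THBS1 were lower and SUSD5 higher in every line, and FBN1, FBN2, NPNT and FN1 passed in both directions. The median log2 fold change of the 10 was -0.20 in 3XSR, 1.14 in MYC-OE, 0.18 in 1xSRSF2, -0.47 in 1xSRSF3 and 0.10 in 1xSRSF7, and that of all genes tested lay between -0.03 and 0.00 in each.

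**Figure D3:**
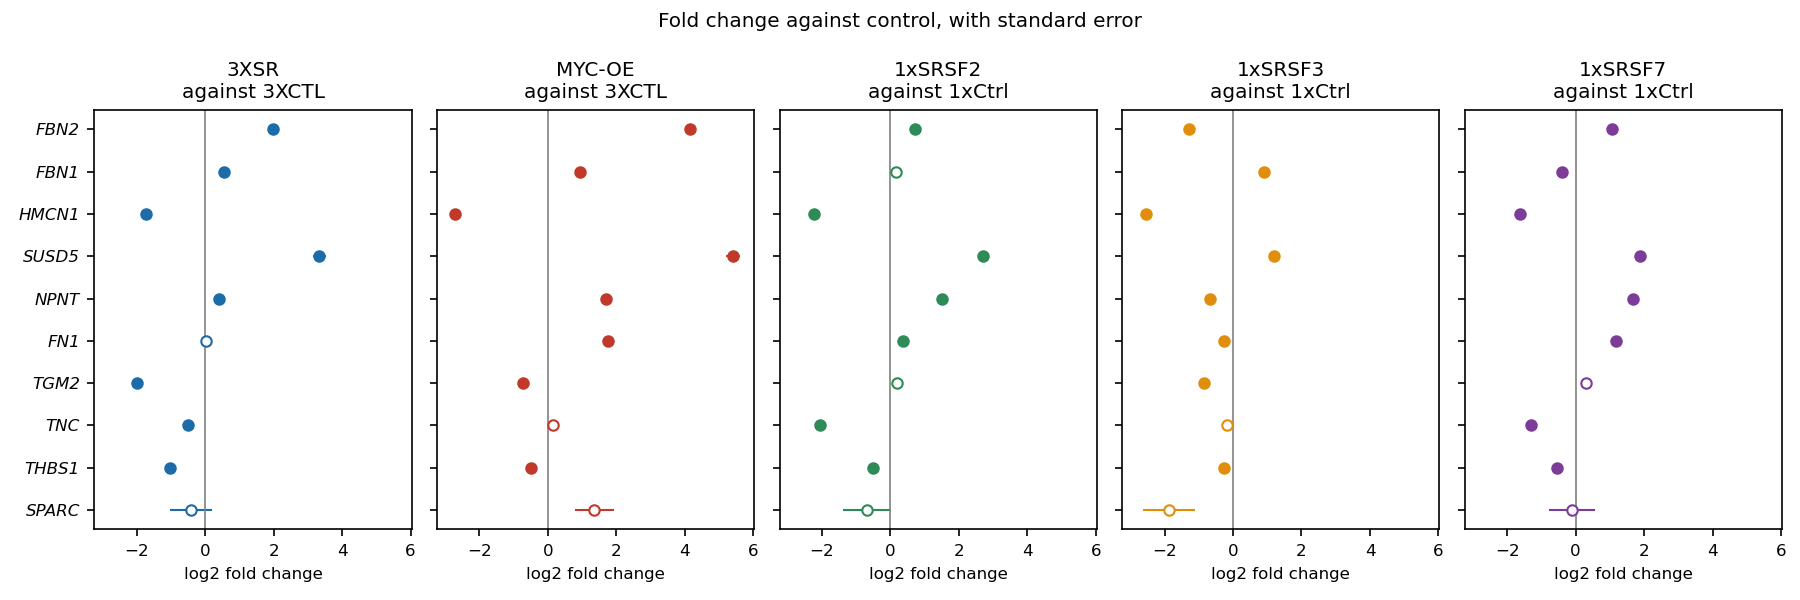
Log2 fold change of each gene against the control of its table, with 1 standard error either side (often smaller than the point); filled points passed the test and open points did not. In 1xSRSF3 FBN2 and NPNT lie to the left of 0 (-1.29 and -0.67) and in the other 4 lines to the right.

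Scaled to exon length and ordered by the highest group mean of each, the genes were led by THBS1, with group means between 62.8 and 141 CPM per kilobase. FN1 followed at 1.74 to 5.80, then FBN2 at 0.237 to 4.19, NPNT at 0.479 to 2.44, SUSD5 at 0.0479 to 2.03, HMCN1 at 0.229 to 1.79, TGM2 at 0.382 to 1.54, FBN1 at 0.341 to 0.905 and TNC at 0.151 to 0.634. SPARC was last, at 0.00662 to 0.0274. The ranges of FBN2 and SUSD5 were the widest, and neighbours in this order from FN1 down to TNC have ranges that overlap, whereas THBS1 and SPARC stand apart from the rest. Within a single group the order can differ. In 3XCTL HMCN1 was at 1.79 CPM per kilobase, FN1 at 1.74, TGM2 at 1.54 and FBN2 at 0.237.

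Overexpressing lines were also compared with each other, since the series sets joint SR overexpression beside MYC and beside the single factors. These contrasts use the same overexpressing libraries as those on which the genes were chosen, so they too are given as values with no p, and nothing is read from their counts. Between MYC-OE and 3XSR all 10 genes lay past the threshold, 9 higher in MYC-OE and 1 lower. Of all genes tested, 34.9% did (17.3% higher, 17.6% lower). FBN2 was higher in MYC-OE by 2.16 on the log2 scale (SE 0.0526), SUSD5 by 2.08 (SE 0.165), FN1 by 1.72 (SE 0.0719), NPNT by 1.30 (SE 0.0894) and TGM2 by 1.28 (SE 0.117). TNC was 0.67 (SE 0.0900) and THBS1 0.55 (SE 0.0546) higher. HMCN1 alone was lower, at -0.98 (SE 0.101). FBN1 was 0.40 higher (SE 0.131), but it was not past the threshold without any 1 of the 3XSR replicates (0.34 to 0.43) or without MYC-OE replicate 1 (0.38) or 3 (0.33). SPARC, which was tested only because MYC-OE cleared the filter, was 1.78 higher (SE 0.586) and not past the threshold without any 1 of the 3XSR replicates (1.69 to 1.95) or without MYC-OE replicate 2 (1.57) or 3 (1.60).

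Levels of several genes differed between the single-factor lines. Between 1xSRSF3 and 1xSRSF7, 9 of the 10 lay past the threshold, 3 higher in 1xSRSF3 and 6 lower, where 35.2% of all genes did (17.8% higher, 17.3% lower). FBN2 was lower in 1xSRSF3 by -2.37 (SE 0.122), NPNT by -2.35 (SE 0.100), FN1 by -1.43 (SE 0.0852), TGM2 by -1.17 (SE 0.138), HMCN1 by -0.91 (SE 0.112) and SUSD5 by -0.68 (SE 0.129). FBN1 was higher in 1xSRSF3 by 1.31 (SE 0.0910) and TNC by 1.14 (SE 0.129). The fibrillins thus differed in opposite directions between these lines. THBS1 was 0.28 higher (SE 0.0680), but 0.18 without 1xSRSF3 replicate 1 and 0.17 with total counts alone. SPARC, at -1.77 (SE 0.749), was not past the threshold, though it was with DESeq2 (-1.79), with limma-voom (-2.60) and without 1xSRSF3 replicate 2 (-2.74).

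Between 1xSRSF2 and 1xSRSF3, 8 of the 10 lay past the threshold, 5 higher in 1xSRSF2 and 3 lower, where 26.8% of all genes did (12.6% higher, 14.1% lower). NPNT was higher in 1xSRSF2 by 2.16 (SE 0.0994), FBN2 by 2.00 (SE 0.120), SUSD5 by 1.5 (SE 0.131), TGM2 by 1.06 (SE 0.137) and FN1 by 0.62 (SE 0.0840). TNC was lower by -1.89 (SE 0.133) and FBN1 by -0.76 (SE 0.0900). THBS1 was lower by -0.25 (SE 0.0680), a value not past the threshold without 1xSRSF2 replicate 1 (-0.22) or 2 (-0.24) or 1xSRSF3 replicate 1 (-0.17). HMCN1 at 0.31 (SE 0.111) and SPARC at 1.18 (SE 0.760) were the 2 not past it. HMCN1 was past it under 9 of 17 alternatives, among them DESeq2 (0.31), total counts alone (0.36) and upper-quartile scaling (0.37), and its libraries did not overlap. Of the 10 genes 6 lay past the threshold between 1xSRSF2 and 1xSRSF7, 2 higher in 1xSRSF2 and 4 lower, where 24.2% of all genes did (11.5% higher, 12.8% lower). FN1 was lower in 1xSRSF2 by -0.81 (SE 0.0840), TNC by -0.75 (SE 0.130) and HMCN1 by -0.60 (SE 0.111), and SUSD5 was higher by 0.82 (SE 0.128) and FBN1 by 0.55 (SE 0.0900). FBN2, at -0.36 (SE 0.115), was not past the threshold without 1xSRSF2 replicate 1 or 2 or 1xSRSF7 replicate 1 or 2 (-0.36 to -0.34). NPNT at -0.19 (SE 0.0946), THBS1 at 0.02 (SE 0.0679), TGM2 at -0.11 (SE 0.135) and SPARC at -0.58 (SE 0.698) were not past it either.

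The wider matrix was described with 101 other genes in 5 lists. These were microfibril and elastic fibre, matricellular, basement membrane and adhesion, transglutaminase, and Link domain and hyaluronan genes. The lists were chosen with earlier results of these data known, and the share of all genes is not matched for abundance. Nothing is therefore read from an excess of the listed genes over that share. In 3XSR 44 of 81 tested passed (22 higher, 22 lower), or 54.3%, against 29.0% of all genes. In MYC-OE 46 of 81 passed (32 higher, 14 lower), or 56.8%, against 35.3%. Among the single factors 38 of 82 passed in 1xSRSF2 (19 higher, 19 lower), 39 in 1xSRSF3 (14 higher, 25 lower) and 24 in 1xSRSF7 (15 higher, 9 lower), or 46.3%, 47.6% and 29.3%, against 23.5%, 29.2% and 17.3%. The median log2 fold change of the lists together was -0.03 in 3XSR, 0.22 in MYC-OE, -0.09 in 1xSRSF2, -0.43 in 1xSRSF3 and 0.15 in 1xSRSF7. Of the 29 microfibril and elastic fibre genes, among which the partners of the fibrillins fall, 26 were tested. In MYC-OE 11 of these passed higher and 3 lower, and in 3XSR 5 and 9. The counts were 4 and 5 in 1xSRSF2, 3 and 10 in 1xSRSF3, and 6 and 0 in 1xSRSF7. Of all genes tested, 18.0% passed higher and 17.3% lower in MYC-OE, and 15.3% and 13.7% in 3XSR. Those shares were 11.6% and 11.9% in 1xSRSF2, 15.0% and 14.1% in 1xSRSF3, and 9.03% and 8.26% in 1xSRSF7. With 26 genes tested, nothing is read from the 0 of 1xSRSF7. Without 1xCtrl replicate 2 the 24 genes of all lists that passed in 1xSRSF7 became 37.

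FBN3, the remaining fibrillin, is in the microfibril list and was singled out after its values were seen. Its counts were 0, 13 and 6 in 3XCTL, 4, 7 and 3 in 3XSR, and 133, 87 and 88 in MYC-OE. Against 3XCTL its log2 fold change was 3.76 (SE 0.712) in MYC-OE. No p is given, because FBN3 was tested in that table only through MYC-OE, whose 3 libraries reached the filter's cutoff, as 1 of 3XCTL and 0 of 3XSR did. The 3 MYC-OE libraries all lay above those of 3XCTL and 3XSR. In the single-factor table the FBN3 counts were 19, 14 and 6 in 1xCtrl, 15, 32 and 22 in 1xSRSF2, 0, 0 and 8 in 1xSRSF3, and 106, 44 and 122 in 1xSRSF7. The 1xSRSF7 libraries lay above the controls (2.36, SE 0.728), but that value was not past the threshold without any 1 of the 6 libraries of the comparison or with the replicate block. The log2 fold changes were -0.31 in 3XSR, 0.72 in 1xSRSF2 and -2.31 in 1xSRSF3.

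LTBP1, LOX, FSTL1 and VCAN were higher than control in all 5 lines, and MATN2, a matrilin, was lower in all 5. They were named because they passed in every line, so each p printed for them was under 0.05 in advance. LTBP1, which binds latent TGF-beta and the fibrillins, was highest against control in MYC-OE, at 5.57 CPM against 1.12 (log2 2.31, SE 0.129, edgeR adjusted p = 8.94e-08), and least in 1xSRSF7, at 2.91 against 2.13 (0.45, SE 0.103, adjusted p = 0.00971). LOX, the cross-linker of elastin and collagen, was at 44.3 CPM in 1xSRSF3 against 17.3 in 1xCtrl (1.35, SE 0.0900, adjusted p = 4.58e-07). MATN2 was at 17.9 CPM in 3XSR against 42.5 in 3XCTL (-1.25, SE 0.0488, adjusted p = 9.86e-09). 19 of the other matrix genes passed in both directions in different lines, and 31 passed in none, 17 of which were not tested in any.

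In each line the listed genes of at least 1 CPM with the largest differences among those that passed were as follows. Each p printed for them was therefore under 0.05 in advance and is given as a description. In 3XSR VCAN, the proteoglycan versican, was 3.44 ± 0.478 CPM (SD, n = 3) against 0.577 ± 0.155 (edgeR adjusted p = 2.35e-06) and SPON1 4.60 ± 0.217 against 0.890 ± 0.153 (adjusted p = 8.94e-07), while the fibulin gene FBLN2 was 2.90 ± 0.466 against 8.42 ± 2.28 (adjusted p = 0.000174) and SPOCK2 1.24 ± 0.168 against 3.05 ± 0.522 (adjusted p = 6.83e-05). In MYC-OE LOXL2, a lysyl oxidase, was 31.2 ± 1.87 CPM against 2.58 ± 0.488 (adjusted p = 2.03e-09) and the proteoglycan gene SPOCK1 13.3 ± 0.629 against 1.10 ± 0.111 (adjusted p = 3.54e-10). EDIL3, a secreted integrin ligand, was 16.4 ± 0.990 CPM there against 60.5 ± 1.84 (adjusted p = 1.78e-09), and SPOCK2 1.09 ± 0.0380 against 3.05 ± 0.522 (adjusted p = 1.60e-05). CCN2 and CCN1, matricellular genes, were 37.8 ± 2.68 against 15.2 ± 1.02 CPM (adjusted p = 4.07e-07) and 68.8 ± 5.49 against 36.3 ± 1.07 (adjusted p = 1.76e-06) in 1xSRSF2. FBLN2 was lower there, 2.49 ± 0.538 against 6.52 ± 3.09 CPM (adjusted p = 0.00964), and did not pass when only these 2 groups were fitted, and SPOCK3 was 0.730 ± 0.0634 against 1.62 ± 0.269 (adjusted p = 0.000305). In 1xSRSF3 VCAN was 9.84 ± 1.07 against 3.41 ± 0.353 CPM (adjusted p = 2.04e-06) and SMOC1 4.80 ± 0.460 against 1.25 ± 0.245 (adjusted p = 1.57e-06), with FBLN2 at 2.26 ± 0.493 (adjusted p = 0.00449) and SPOCK3 at 0.566 ± 0.0752 (adjusted p = 2.53e-05). In 1xSRSF7 PXDN, a peroxidase that cross-links collagen of basement membranes, was 131 ± 4.75 against 65.9 ± 10.2 CPM (adjusted p = 3.06e-05) and MATN3 1.36 ± 0.103 against 0.708 ± 0.217 (adjusted p = 0.00817). The hyaluronan synthase HAS2 was 55.1 ± 3.48 against 97.6 ± 10.3 there (adjusted p = 4.18e-05), and THBS2 0.878 ± 0.133 against 1.45 ± 0.222 (adjusted p = 0.0233), which did not pass without 1xSRSF7 replicate 2 or 3 (-0.66 and -0.71).

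**Figure D4:**
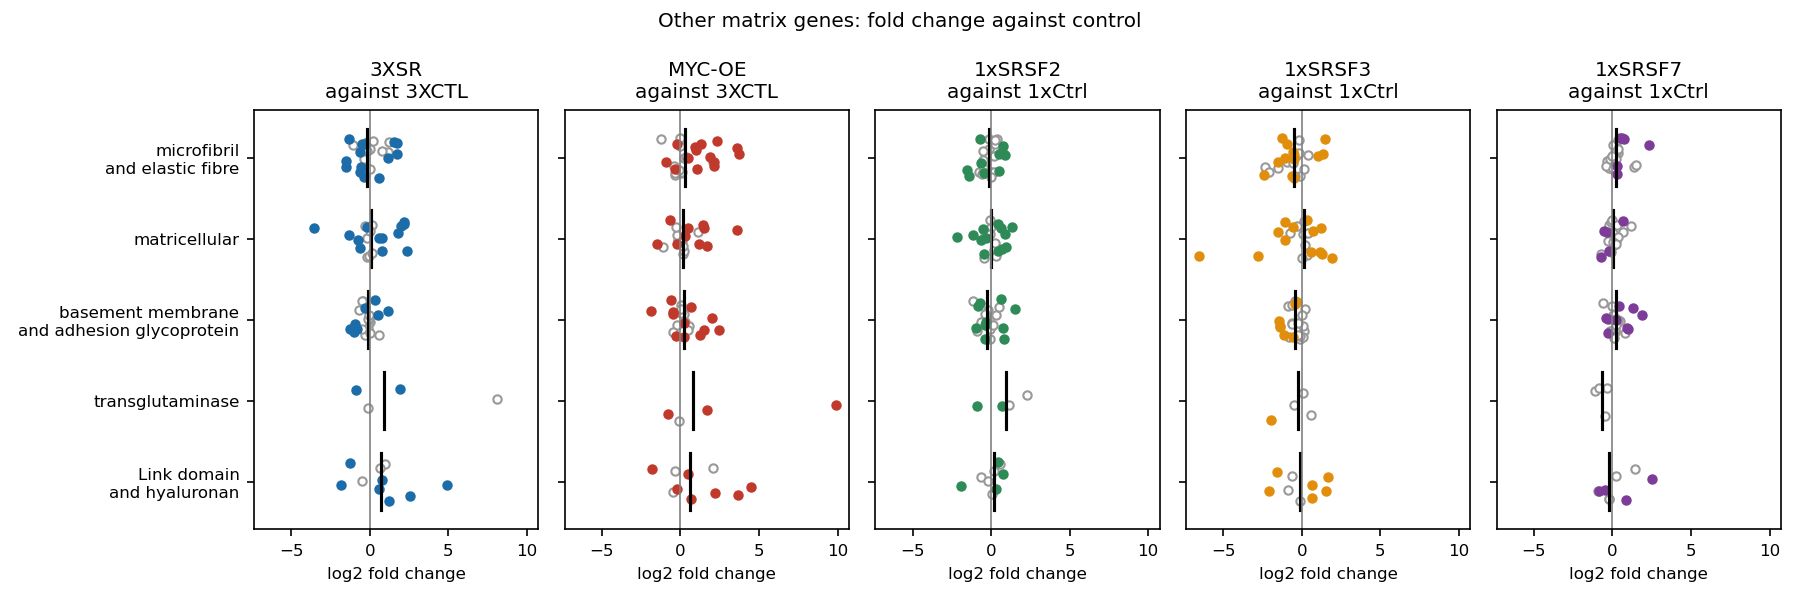
Log2 fold change of the other matrix genes against the control of their table, by list; filled points passed the test, open grey points did not, and black bars are medians of the genes tested. In 1xSRSF7 none of the 26 microfibril genes tested passed on the lower side, where 8.26% of all genes did. In 1xSRSF3 10 of the 26 did, where 14.1% of all genes did. TGM3 in 3XSR and MYC-OE was set against 0 counts in every 3XCTL library, and CCN4 had 0 counts in every 1xSRSF3 library, so the sizes drawn for them depend on the prior count.

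For FBN1, FBN2 and HMCN1 the genes most alike in pattern were sought among 11260 genes of at least 5 CPM, as the root mean square difference of centred log2 CPM over the 21 libraries. LAMA3 (0.179), CD44 (0.194) and AKAP12 (0.2) lay nearest to FBN1, whose own SD was 0.465. LAMA3, a laminin chain, was highest in 1xSRSF3 (834 ± 72.5 CPM, SD, n = 3) and lowest in 1xSRSF7 (398 ± 26.6), as FBN1 was within its table. ULBP1 (0.519), NRSN2 (0.541) and SPOCK1 (0.554) lay nearest to FBN2, whose SD was 1.31, but ULBP1 differed from it in 1xSRSF3, at 5.41 ± 0.712 CPM against 5.54 ± 0.385 in 1xCtrl. LUM (0.370), METTL7A (0.512) and RBPMS2 (0.525) lay nearest to HMCN1, whose SD was 1.08. The likeness describes these libraries only, since libraries of a group share their line. Each gene was centred on 1 mean over both count tables, so a difference between the tables counts as likeness too. Means in 3XCTL and 1xCtrl, each scaled within its table, were 3.13 and 11.0 CPM for FBN2 and 1.79 and 5.54 for ULBP1. They were 2.00 and 6.85 for NRSN2 and 1.10 and 5.63 for SPOCK1.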

How the data were processed

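Per the labels' protocols, RNA was treated with DNase, and polyA-selected stranded libraries were read in pairs on an Illumina NovaSeq. The deposited values are whole-number counts per gene in 2 tables of 60668 Ensembl identifiers, and their column sums differ. The submitters' processing notes list Trimmomatic 0.39, STAR, StringTie 2.1.3b and GRCh38.p13. The counting tool's role, its strand setting and the annotation are not given in the sources used here. Symbols matched 42005 identifiers, and 58516 were found in GENCODE 29 (GRCh38), which supplied positions, exon lengths and overlaps. It may differ from the annotation the authors used.

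In R 4.3.3, edgeR 4.0.16 kept genes by filterByExpr (minimum count 10, minimum total 15), scaled by TMM and tested each contrast, two-sided, with the quasi-likelihood F test on a robust fit over all groups of a table, with Benjamini-Hochberg adjustment over all genes tested and a threshold of 0.05. The standard error is the log2 fold change divided by the square root of F. Alternatives were RLE, upper-quartile or total-count scaling, no filter or 10 counts in every library, DESeq2 1.42.0, limma-voom (limma 3.58.1), removal of each library's GC trend, a fit of only the groups compared, the replicate number as a block, a log2 fold change of at least 1 in size, and leaving out each replicate. Fold changes and tests were checked on simulated counts.

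No p is printed for the 10 genes, also between overexpressing lines, where a p had been planned for some. The 10 genes, the other matrix lists, the rules for naming and the alternatives were chosen with earlier results of these data known. All 10 genes are named. From the other lists the 2 highest and 2 lowest that passed, of at least 1 CPM, are named per line, as are those that passed one way in every line, chosen after their values were seen, and the 3 genes most alike to FBN1, FBN2 and HMCN1 (prior count 2). Same-numbered replicates did not deviate together (mean correlation from -0.107 to 0.0118), so the numbers were not used as pairs. Floors of 3 counts reflect counting error alone, because without molecular identifiers several reads can stem from 1 molecule. Sequences are from RefSeq (GRCh38.p14); splicing was not analysed here.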

Additional observations from a re-analysis of the deposited data

Results flagged for a closer look

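5 of the genes stood apart because every library of at least 1 line lay above its control and every library of another lay below. These differences span the 2 count tables and were not tested. FBN2 had a log2 fold change of 4.14 in MYC-OE and -1.29 in 1xSRSF3, a difference of 5.44. All 3 libraries were also above control in 3XSR, 1xSRSF2 and 1xSRSF7, so 1xSRSF3 was the only line below. For NPNT, with the same lines above and below, the values were 1.71 and -0.67, a difference of 2.38. FN1 was at 1.74 in MYC-OE and -0.26 in 1xSRSF3, a difference of 2.00, with 3XSR overlapping its control.

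FBN1 was at 0.93 in MYC-OE and -0.40 in 1xSRSF7, a difference of 1.33, and 1xSRSF7 was the only line whose libraries all lay below control. For TNC MYC-OE was the only line whose libraries all lay above control, at 0.15, a value that did not pass the test, and 1xSRSF2 was the lowest at -2.07, a difference of 2.22.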

How the results depend on the processing

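Calls of the 10 genes are counted here as a description, since they were chosen on these libraries. No value of the 10 that passed the threshold changed sign under any alternative, and of 1520 values under alternatives 1442 stayed on their side of the threshold. Requiring a log2 fold change of at least 1 in size left 5 of the 10 genes in 3XSR, 5 in MYC-OE, 4 in 1xSRSF2 and 3 in 1xSRSF3, and 6 of 10 for MYC-OE against 3XSR, 5 for 1xSRSF2 against 1xSRSF3 and 0 for 1xSRSF2 against 1xSRSF7. It left 22, 26, 7, 24 and 4 of the other matrix genes in 3XSR, MYC-OE, 1xSRSF2, 1xSRSF3 and 1xSRSF7. Leaving out single replicates gave between 19 and 37 other matrix genes in 1xSRSF7. The share of all genes under these alternatives is not given here, so nothing is read from how many of the named genes were left. The counts of the 10 genes in the 9 contrasts stayed within 1.5 times under every other alternative.

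With the replicate number as a block, 8 of the 10 genes passed for MYC-OE against 3XSR in place of 10. FBN1 and SPARC were those lost. Of all 23160 genes tested in that contrast, 7549 passed with the block in place of 8076. With the block 33 other matrix genes passed in 1xSRSF2 in place of 38. Of all 24362 genes tested there, 4934 passed in place of 5733. In no contrast did same-numbered libraries deviate together.

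Under upper-quartile scaling THBS1 in 1xSRSF2 against 1xSRSF3 (-0.19) and FBN2 in 1xSRSF2 against 1xSRSF7 no longer passed, nor did SPARC in MYC-OE against 3XSR with limma-voom (1.57). TGM2 in 1xSRSF7 passed once the GC trend was removed (0.33). The cause was not tested. With total counts alone the median of all genes was -0.14 in 1xSRSF3 against 1xCtrl and -0.13 in 1xSRSF3 against 1xSRSF7. Depth limits SPARC and, in 3XCTL, SUSD5.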
